A study of Saccharomyces cerevisiae with 12 samples.

Results

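The 30 genes described here belong to mannoprotein gene families of budding yeast that are linked to scarce oxygen or cold. They are 24 seripauperin (PAU) genes, the TIR genes TIR1, TIR2, TIR3 and TIR4, and the DAN genes DAN1 and DAN4. They were chosen by gene symbol, as every gene on the array whose symbol is PAU with a number, TIR1 to TIR4 or DAN1 to DAN4, out of 6224 genes measured. DAN2 and DAN3 are older names of PAU23 and PAU24 and were counted once, under the PAU names. Each of the 30 genes had 1 probe, printed as 2 spots.

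Saccharomyces cerevisiae coats its wall with mannoproteins, heavily glycosylated proteins of which many are anchored through a lipid tail. In air the TIR and DAN genes are held down by repressors that need haem, Rox1 and Mot3 among them, and when oxygen or sterol runs short the transcription factor Upc2 switches them on, so that one set of wall proteins takes the place of another. The PAU genes form the largest gene family of this yeast, respond to low oxygen and to fermentation, and lie mostly near chromosome ends in stretches where histone deacetylases act.

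The measured yeast were of strain L40, in 3 groups of 4 samples. The scFv-58F group stably expressed a single-chain antibody fragment inside the cell (an intrabody) against histone H3 acetylated at lysine 9. The scFv-112A group stably expressed an intrabody against acetylated HIV-1 integrase, a protein that yeast lacks, and the labels name it as the control. The wild type group was L40 with no intrabody. The promoter behind each intrabody, its level in the cells and the number of clones are not given in the labels. Plates and first liquid cultures of both intrabody strains were in medium without leucine and those of wild type in rich medium, and all groups spent their final overnight growth in rich medium, so that intrabody, earlier medium and strain handling cannot be told apart in a comparison with wild type. The labels give the same growth temperature and the same starting optical density for every sample, so the groups did not differ by label in either. Poly(A) RNA labelled with a single dye was hybridised to 12 Agilent arrays. The labels do not say whether replicates were separate cultures, so the p-values below measure only the spread between these samples, which may be technical. All 4 arrays of a group were on the same slide and scan, and no slide held a second group, so that slide and group cannot be told apart.

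Array depth was similar throughout. Between 87.0% and 94.7% of the 12512 gene spots were well above background, no gene spot was saturated, and replicates correlated across genes with Pearson's r of 0.993 to 0.999. The 75th percentile of the signal was 4739 to 5782 units on scFv-58F arrays, 4984 to 5254 on scFv-112A arrays and 5592 to 6047 on wild type arrays, apart from wild type replicate 1 at 9362. Levels are given as the log2 of the signal minus the log2 of that array's 75th percentile, so that 0 is the brightness of the 75th percentile spot. Levels of different genes are not compared, since each probe has its own response.

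Of the 30 genes, 29 were tested, and the untested gene was DAN1. A gene was said to rise or fall when its adjusted p was under 0.05 in a limma fit over the 5827 tested genes and 3 groups (2-sided, Benjamini-Hochberg adjustment over all tested genes). The 3 comparisons share samples in pairs, so their results for one gene are not independent of each other. The arrays measured whole cultures, and a change in every cell and a larger change in fewer cells cannot be told apart.

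Among the TIR genes, TIR1, TIR2 and TIR3 rose in both intrabody strains relative to wild type, while TIR4 did not. TIR1 and TIR2, whose products are wall mannoproteins induced by cold shock and lack of oxygen, rose by about 2-fold in both strains. DAN4, another wall mannoprotein gene of oxygen-starved cells, fell in both intrabody strains. DAN1 was not measurable on any array.

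TIR1 (YER011W, chromosome V) had levels of 1.57, 1.39, 1.36 and 1.90 on the scFv-58F arrays, 1.56, 1.82, 1.84 and 1.56 on the scFv-112A arrays, and 0.12, 0.43, 0.38 and 0.33 on the wild type arrays. Every intrabody array lay above every wild type array, and both intrabody groups overlapped. TIR1 was 2.36-fold higher in scFv-58F than in wild type (log2 change 1.24 ± 0.12 SE, adjusted p = 4.61e-06) and 2.60-fold higher in scFv-112A than in wild type (1.38 ± 0.12, adjusted p = 8.2e-06). Between scFv-58F and scFv-112A the change was -0.14 ± 0.12 (95% interval -0.40 to 0.12, adjusted p = 0.403), which did not pass.

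TIR2 (YOR010C, chromosome XV) had levels of 1.83, 1.92, 1.79 and 1.70 in scFv-58F, 1.68, 1.72, 1.48 and 1.69 in scFv-112A, and 0.46, 0.70, 0.72 and 0.80 in wild type. As with TIR1, the wild type arrays stood apart below all 8 intrabody arrays, and the intrabody groups overlapped at their edges. TIR2 was 2.20-fold higher in scFv-58F (1.14 ± 0.08, adjusted p = 5.57e-07) and 1.96-fold higher in scFv-112A (0.97 ± 0.08, adjusted p = 5.49e-06), both relative to wild type. The difference between scFv-58F and scFv-112A was 0.16 ± 0.08 (95% interval -0.01 to 0.34, adjusted p = 0.135).

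TIR3 (YIL011W, chromosome IX) encodes a wall mannoprotein needed for growth without oxygen. Its levels were -2.98, -3.01, -3.04 and -2.79 in scFv-58F, -3.26, -2.99, -3.40 and -2.82 in scFv-112A, and -3.50, -3.56, -3.50 and -3.46 in wild type. The 4 wild type arrays were tightly grouped below the rest, while the scFv-112A arrays were widely spread and the lowest of them came close to wild type. TIR3 was 1.46-fold higher in scFv-58F than in wild type (0.55 ± 0.11, adjusted p = 0.000908) and 1.31-fold higher in scFv-112A than in wild type (0.39 ± 0.11, adjusted p = 0.0113). The scFv-58F over scFv-112A change was 0.16 ± 0.11 (adjusted p = 0.276). The 2 spots of TIR3 differed by up to 0.74 log2 units on an array, against 0.16 for TIR1 and 0.21 for TIR2.

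TIR4 (YOR009W) is the neighbour of TIR2 on chromosome XV and encodes a further mannoprotein of oxygen-starved cells. Its levels were -1.84, -1.93, -1.87 and -1.97 in scFv-58F, -2.08, -2.10, -1.98 and -1.93 in scFv-112A, and -1.75, -1.80, -1.84 and -1.76 in wild type. Here the wild type arrays were the highest, the reverse of TIR2 beside it. TIR4 fell in scFv-112A relative to wild type, by 0.23 ± 0.05 on the log2 scale (1.18-fold lower, adjusted p = 0.00251). In scFv-58F relative to wild type the change was -0.12 ± 0.05 (adjusted p = 0.0581); the arrays did not overlap, but the closest 2 differed only in the third decimal, and the change passed with quantile or cyclic loess scaling. The change of scFv-58F over scFv-112A was 0.12 ± 0.05 (adjusted p = 0.0889), and it passed with another background correction or when outlier spots were kept out of the 75th percentile.

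DAN4 (YJR151C, chromosome X) had levels of -3.00, -3.07, -3.06 and -3.09 in scFv-58F, -2.84, -2.85, -2.93 and -2.83 in scFv-112A, and -2.51, -2.61, -2.66 and -2.80 in wild type. The groups were ordered scFv-58F, scFv-112A, wild type from low to high, with no overlap at either step. DAN4 was 1.33-fold lower in scFv-58F than in wild type (-0.41 ± 0.06, adjusted p = 9.4e-05) and 1.16-fold lower in scFv-112A than in wild type (-0.21 ± 0.06, adjusted p = 0.0102). It was 1.14-fold lower in scFv-58F than in scFv-112A (-0.19 ± 0.06, adjusted p = 0.0254), a call that was lost in 6 of 21 other settings, quantile scaling among them.

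DAN1 (YJR150C), next to DAN4 on chromosome X, encodes a wall mannoprotein made when oxygen is absent. Its probe was not well above background on any of the 12 arrays. Its signal ran from 6.09 to 45.2 units and on each array was below the lowest signal that counted as well above background there, which was 12.7 to 79.9 units. No level, fold change or test is given for it.

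**Figure D1:**
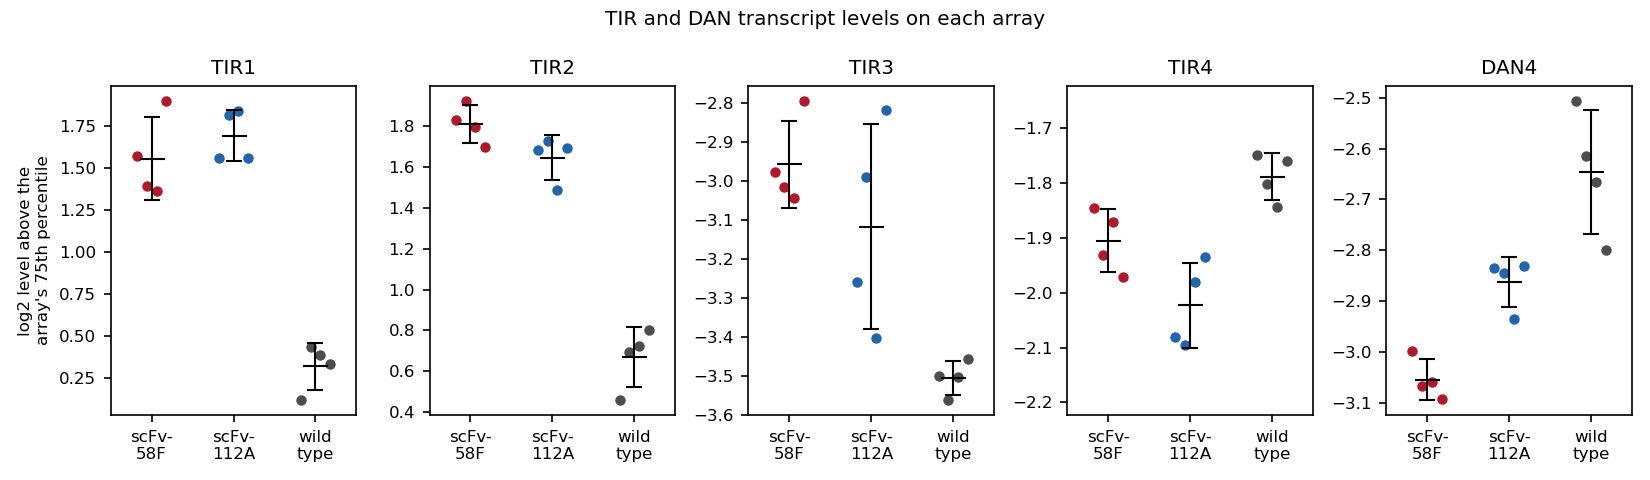
Levels of the 5 measured TIR and DAN genes on each of the 12 arrays, as log2 above the array's 75th percentile; points are arrays, and bars show the mean and SD of the 4 arrays of a group, with a vertical scale of its own for each gene. TIR1, TIR2 and TIR3 were higher on all 8 intrabody arrays than on the wild type arrays, and TIR4 and DAN4 were lower on them.

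Whether 2 TIR genes moved by unequal amounts was tested on their within-array difference, for the 6 pairs in the 3 comparisons (18 exact 2-sided permutation tests over arrays, adjusted over the 18). With 4 arrays against 4 the smallest p such a test can give is 0.0286, which became 0.0468 after adjustment. The 18 tests are not independent, since the pairs share genes and the comparisons share arrays. The adjusted value is under 0.05 only because many of these tests were tied at the smallest p. The adjusted p of any pair therefore rests on the other pairs too. The difference TIR2 minus TIR4, the adjacent pair, averaged 3.71 ± 0.09 in scFv-58F, 3.67 ± 0.16 in scFv-112A and 2.46 ± 0.17 in wild type (SD, n = 4 each). It was therefore larger by 1.25 in scFv-58F and by 1.21 in scFv-112A than in wild type, each at the smallest exact p of 0.0286 (adjusted 0.0468), and it differed by 0.05 between the intrabody strains (exact p = 0.686).

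TIR1 also moved apart from TIR4, by 1.36 in scFv-58F and 1.61 in scFv-112A relative to wild type, and TIR3 moved apart from TIR4 by 0.66 and 0.62 in the same order of strains. TIR1 exceeded TIR3 by a further 0.69 in scFv-58F and 0.99 in scFv-112A, and TIR2 exceeded TIR3 by 0.59 in both, all relative to wild type and all at the smallest exact p. TIR1 and TIR2 differed in their change in scFv-112A over wild type by 0.40 (adjusted exact p = 0.0468), but in scFv-58F over wild type by 0.10 (exact p = 0.686). None of the 6 pairs passed between scFv-58F and scFv-112A.

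All 24 PAU genes were well above background on all 12 arrays. Many copies are nearly identical in sequence, so that a probe can pick up transcripts of several, and the 24 probes are not 24 independent measurements. The direction of change followed one order across the family: by group means, scFv-112A was highest for every PAU gene, and scFv-58F and wild type lay below. Relative to scFv-112A, 10 PAU genes (41.7%) fell in scFv-58F and none rose, where 32.0% of all tested genes passed, 14.1% higher and 17.9% lower. The log2 change was negative for all 24 (median -0.11, from -0.33 to -0.02). Relative to wild type, 6 PAU genes (25.0%) rose in scFv-58F and none fell, well below the 61.9% of all tested genes that passed, 29.7% higher and 32.2% lower. The median change was 0.04 (from -0.11 to 0.33), and with cyclic loess scaling PAU12, PAU21 and PAU22 fell in that comparison. In scFv-112A 15 PAU genes (62.5%) rose relative to wild type and none fell, where 48.3% of all tested genes passed, 22.8% higher and 25.5% lower. The change was positive for all 24 (median 0.16, from 0.07 to 0.51).

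These changes were small. No PAU gene reached 2-fold in any comparison, and the median SE of a change was 0.05. Over all tested genes the medians were -0.02, -0.01 and -0.01 in scFv-58F over scFv-112A, scFv-58F over wild type and scFv-112A over wild type. The SD of the change among PAU genes was 0.072, 0.111 and 0.0994 in those comparisons, against 0.260, 0.450 and 0.334 among all tested genes. The median PAU level of an array varied within groups with a pooled SD of 0.0509, and it was -0.31 to -0.22 on scFv-58F arrays, -0.22 to -0.15 on scFv-112A arrays and -0.44 to -0.26 on wild type arrays. The scFv-58F and scFv-112A ranges nearly met, and the scFv-58F and wild type ranges overlapped.

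The largest fall in scFv-58F relative to scFv-112A was at PAU17 (YLL025W, chromosome XII). Its levels were -1.06, -1.08, -1.05 and -0.94 in scFv-58F, -0.76, -0.64, -0.72 and -0.70 in scFv-112A, and -1.10, -1.01, -0.90 and -0.97 in wild type. The scFv-112A arrays stood alone above both other groups, which overlapped. PAU17 was 1.26-fold lower in scFv-58F than in scFv-112A (-0.33 ± 0.05, adjusted p = 0.000936) and 1.22-fold higher in scFv-112A than in wild type (0.29 ± 0.05, adjusted p = 0.000878). Its change in scFv-58F over wild type was -0.04 ± 0.05 (adjusted p = 0.553). The 2 spots of PAU17 differed by up to 0.34 log2 units on an array, the most of any PAU gene.

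PAU21 (YOR394W, chromosome XV) followed the same order. Its levels were -0.04, -0.11, -0.15 and -0.11 in scFv-58F, 0.21, 0.15, 0.12 and 0.14 in scFv-112A, and 0.05, 0.04, -0.04 and -0.07 in wild type. Again the scFv-112A arrays were above all others. The log2 change was -0.26 ± 0.04 in scFv-58F over scFv-112A (adjusted p = 0.00144) and 0.16 ± 0.04 in scFv-112A over wild type (adjusted p = 0.0112). In scFv-58F over wild type it was -0.10 ± 0.04 (adjusted p = 0.0668), and the groups overlapped.

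PAU23 (YLR037C, chromosome XII), formerly DAN2, had levels of -0.28, -0.38, -0.27 and -0.29 in scFv-58F, -0.05, -0.18, -0.08 and -0.11 in scFv-112A, and -0.29, -0.19, -0.21 and -0.27 in wild type. The scFv-112A arrays were highest, though their lowest lay just above the highest wild type array. PAU23 fell by 0.20 ± 0.05 on the log2 scale in scFv-58F relative to scFv-112A (adjusted p = 0.00617) and rose by 0.13 ± 0.05 in scFv-112A relative to wild type (adjusted p = 0.0289, lost in 7 of 21 other settings). PAU12 (YGR294W, chromosome VII) also fell in scFv-58F relative to scFv-112A, and it was the PAU gene with the most negative change in scFv-58F over wild type. Its levels were -0.77, -0.85, -0.77 and -0.81 in scFv-58F, -0.61, -0.57, -0.70 and -0.62 in scFv-112A, and -0.78, -0.66, -0.66 and -0.67 in wild type. The scFv-58F arrays lay below all scFv-112A arrays (-0.18 ± 0.04, adjusted p = 0.0112) and below 3 of the wild type arrays (-0.11 ± 0.04, adjusted p = 0.0532). In scFv-112A over wild type the PAU12 change was 0.07 ± 0.04 (adjusted p = 0.22), with overlap.

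PAU11, PAU8 and PAU2 rose in both intrabody strains relative to wild type, whose mean was the lowest for 17 of the 24 PAU genes. PAU11 (YGL261C, chromosome VII) had levels of -1.08, -1.16, -1.09 and -1.08 in scFv-58F, -0.88, -0.85, -1.06 and -0.87 in scFv-112A, and -1.53, -1.39, -1.41 and -1.37 in wild type. The 3 groups did not overlap. PAU11 had the largest rises of the family, 1.25-fold in scFv-58F over wild type (0.33 ± 0.05, adjusted p = 0.000283) and 1.43-fold in scFv-112A over wild type (0.51 ± 0.05, adjusted p = 3.02e-05). It was 1.14-fold lower in scFv-58F than in scFv-112A (-0.19 ± 0.05, adjusted p = 0.022), a call lost in 5 of 21 other settings.

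PAU8 (YAL068C, chromosome I) had levels of -0.84, -0.93, -0.88 and -0.96 in scFv-58F, -0.74, -0.78, -0.81 and -0.71 in scFv-112A, and -1.16, -1.05, -1.07 and -1.08 in wild type. No 2 groups overlapped. It rose in scFv-58F over wild type by 0.19 ± 0.04 (adjusted p = 0.00295) and in scFv-112A over wild type by 0.33 ± 0.04 (adjusted p = 0.000124), and it fell by 0.14 ± 0.04 in scFv-58F relative to scFv-112A (adjusted p = 0.0256, lost in 6 of 21 other settings). PAU2 (YEL049W, chromosome V) had levels of -0.33, -0.40, -0.40 and -0.46 in scFv-58F, -0.36, -0.32, -0.39 and -0.35 in scFv-112A, and -0.64, -0.60, -0.59 and -0.69 in wild type. Both intrabody groups overlapped and stood above wild type. PAU2 rose by 0.23 ± 0.04 in scFv-58F (adjusted p = 0.00045) and by 0.27 ± 0.04 in scFv-112A (adjusted p = 0.000288), relative to wild type, and its change in scFv-58F over scFv-112A was -0.04 ± 0.04 (adjusted p = 0.451).

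**Figure D2:**
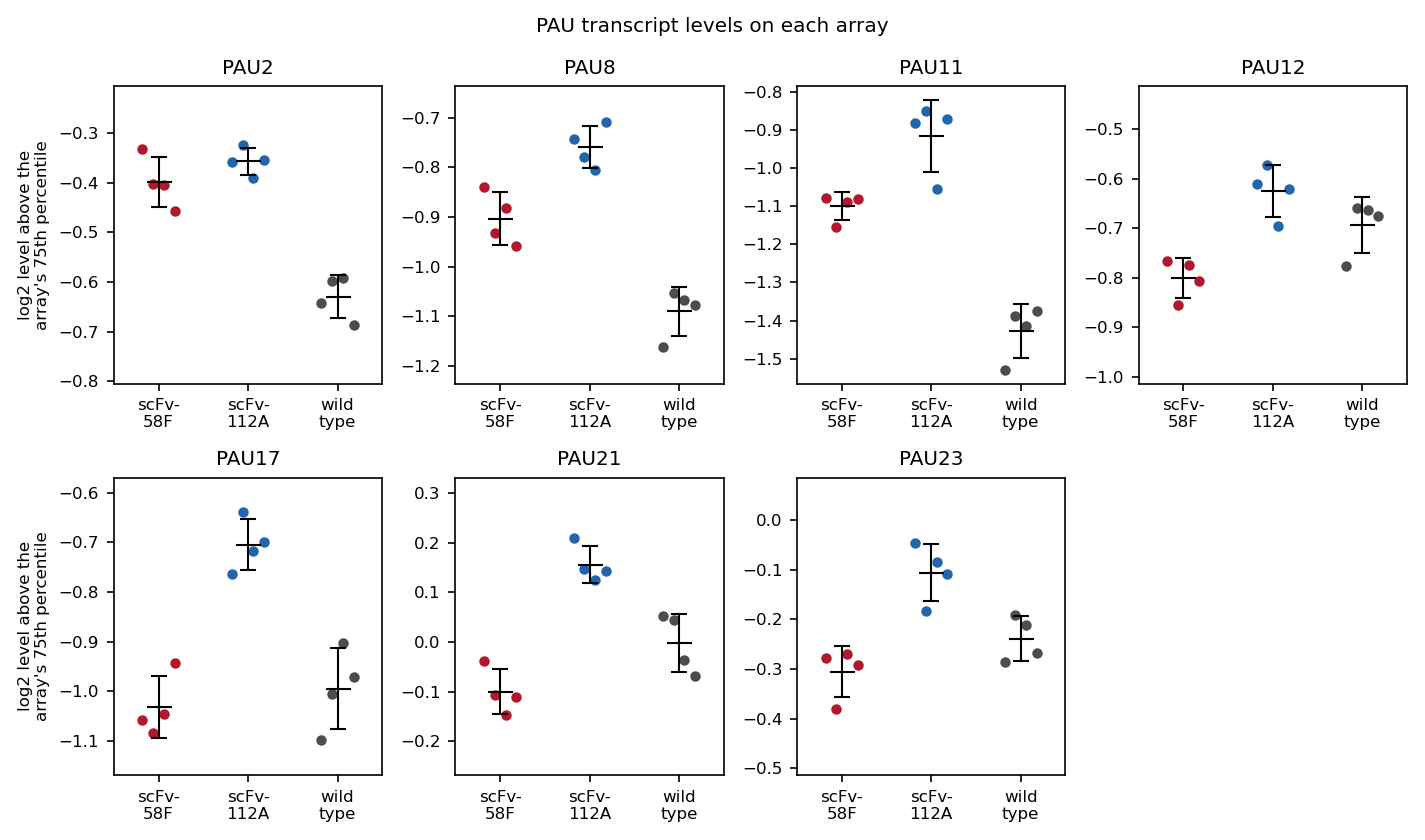
Levels of 7 PAU genes on each of the 12 arrays, as log2 above the array's 75th percentile; points are arrays, and bars show the mean and SD of the 4 arrays of a group, with a vertical scale of its own for each gene. In PAU17, PAU21 and PAU23 the scFv-112A arrays were above both other groups, and in PAU2, PAU8 and PAU11 the wild type arrays were below both other groups.

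The other 17 PAU genes ranged in their change from -0.16 to -0.02 in scFv-58F over scFv-112A, from -0.09 to 0.22 in scFv-58F over wild type and from 0.07 to 0.24 in scFv-112A over wild type. In scFv-58F over scFv-112A, PAU3, PAU15, PAU19 and PAU22 fell, by 1.11-fold to 1.12-fold. Relative to wild type, PAU4, PAU7 and PAU20 rose in scFv-58F, by 1.10-fold to 1.16-fold. Relative to wild type again, the genes that rose in scFv-112A were PAU1, PAU3, PAU4, PAU6, PAU7, PAU10, PAU15, PAU19 and PAU20, by 1.10-fold to 1.18-fold. The remaining genes of the family, PAU5, PAU9, PAU13, PAU14, PAU16, PAU18 and PAU24, passed in no comparison. At a change of this size a single array could decide the call: without scFv-112A replicate 1, or without wild type replicate 4, 12 instead of 18 TIR, DAN and PAU genes rose in scFv-112A over wild type.

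The plot of PAU genes by array shows how far each probe deviated on each array. Since the probes can share signal, likeness between them was not read as likeness of separate transcripts. The deviation of a PAU gene from its own mean over the 12 arrays lay between -0.38, for PAU11 on wild type replicate 1, and 0.30, for PAU11 on scFv-112A replicate 2. On 3 of the 4 scFv-112A arrays every PAU gene was above its own mean, whereas scFv-112A replicate 3 ran from -0.08 to 0.19. The median deviation was -0.07 to 0.07 over the scFv-58F arrays, 0.02 to 0.12 over the scFv-112A arrays and -0.15 to 0.01 over the wild type arrays. Within wild type, replicate 4 had the lowest median deviation, with single genes at -0.26 to 0.03.

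**Figure D3:**
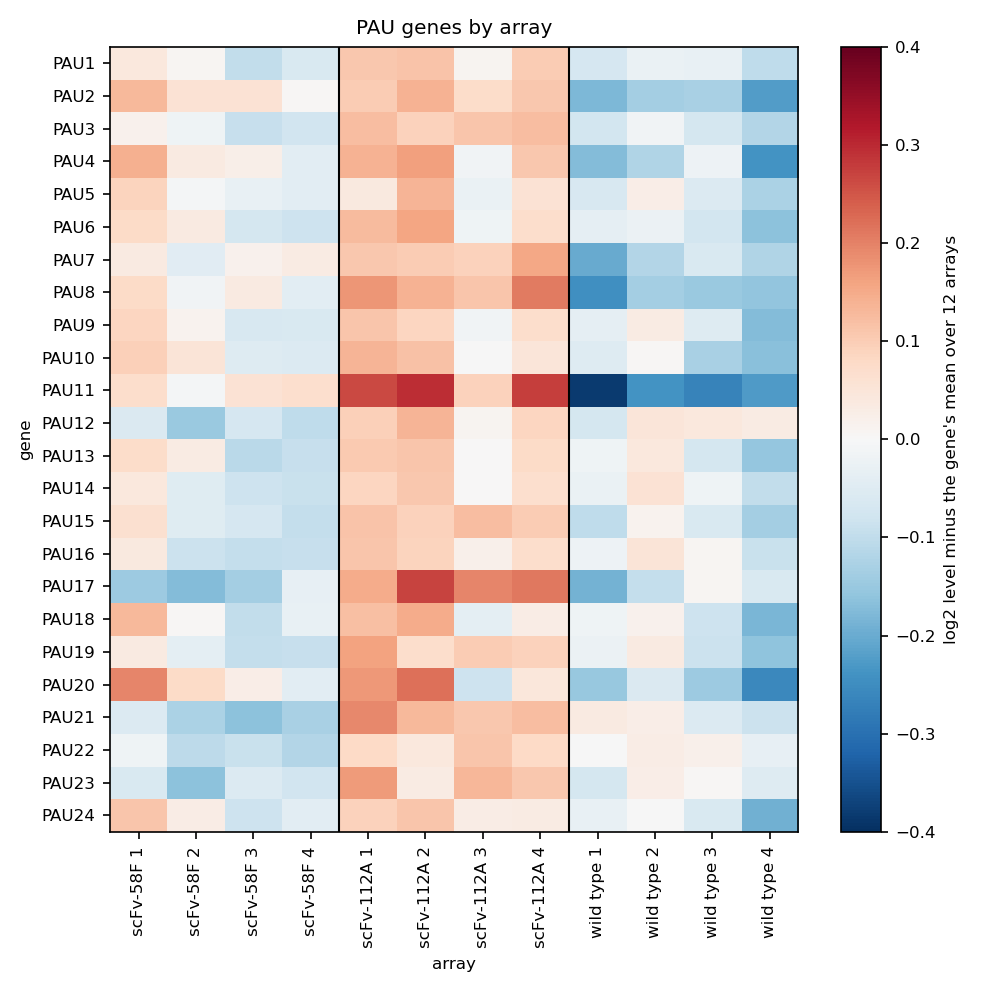
Level of each of the 24 PAU genes (down) on each of the 12 arrays (across, in groups of 4), as the log2 level minus that gene's mean over the 12 arrays. The scFv-112A columns are mostly red, from -0.08 to 0.30, and PAU11 and PAU17 are the genes with the strongest colours.

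Counted over PAU, TIR and DAN genes together, none rose and 11 fell in scFv-58F relative to scFv-112A. That is 37.9% of the 29 genes, near the 32.0% of all tested genes that passed. By the arrays alone, 12 of the 29 did not overlap between scFv-58F and scFv-112A, against 34.5% of all tested genes. In scFv-58F over wild type 9 rose and 1 fell, and 10 of the 29 did not overlap, against 57.9%. The share of the 29 genes that passed there, 34.5%, was below the 61.9% of all genes. In scFv-112A over wild type 18 rose and 2 fell, or 69.0% against 48.3% of all tested genes, and 20 of the 29 did not overlap, against 39.8%. A change of at least 2-fold was reached by TIR1 and TIR2 in scFv-58F over wild type and by TIR1 in scFv-112A over wild type.

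**Figure D4:**
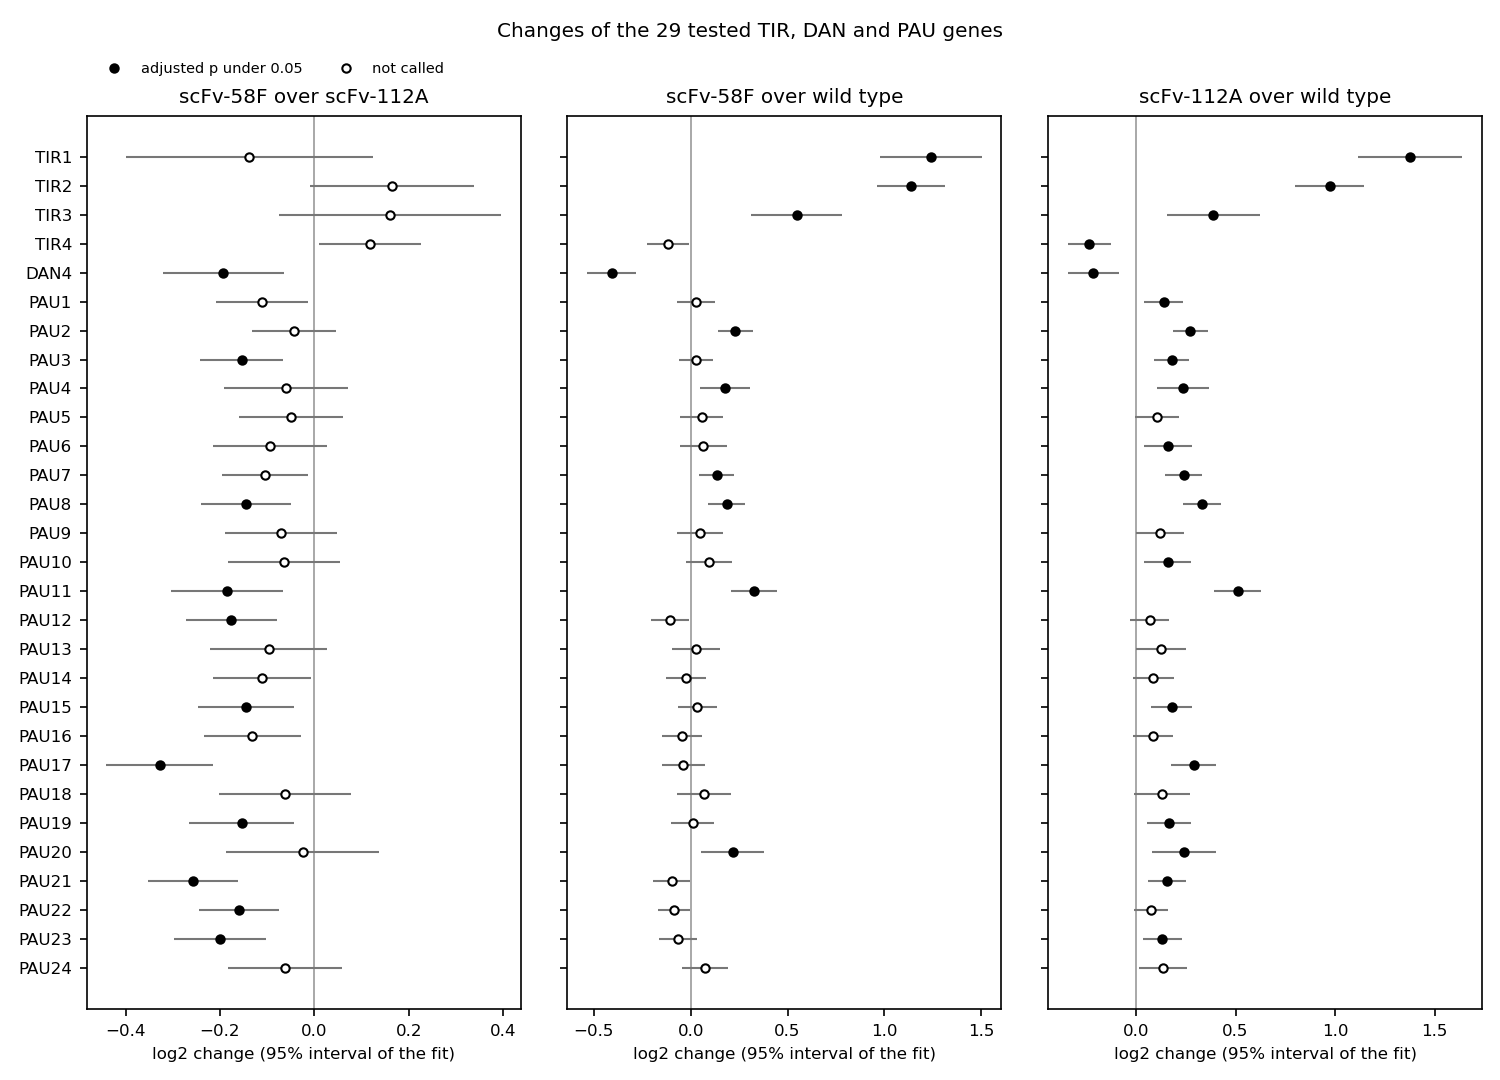
Log2 change of the 29 tested TIR, DAN and PAU genes in the 3 comparisons, with the 95% interval of the fit; filled points passed at an adjusted p of 0.05, and the horizontal scales differ between panels. All 24 PAU changes lie below 0 in scFv-58F over scFv-112A and above 0 in scFv-112A over wild type, where TIR1 and TIR2 lie farthest from 0.

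Position along the chromosome was set beside the PAU changes. PAU genes lie on all 16 chromosomes, and 19 of the 24 are among the 10 annotated genes nearest a chromosome end. These 19 had median changes of -0.11 in scFv-58F over scFv-112A, 0.03 in scFv-58F over wild type and 0.16 in scFv-112A over wild type. The 5 farther from an end, PAU2, PAU5, PAU7, PAU17 and PAU23, had medians of -0.10, 0.06 and 0.24 in the same comparisons. The difference between both sets was not tested.

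Genes outside the families but near chromosome ends were set beside them, with no test of the difference. Of 73 such genes among the 3 nearest an end, 71 were tested. This cut is narrower than the 10 genes used for the PAU genes. Whether probes of these genes share signal, as PAU probes can, was not tested, so they may not be separate measurements. In scFv-58F over scFv-112A 2 rose and 20 fell, with a median of -0.11. Over wild type 27 rose and 10 fell in scFv-58F, with a median of 0.12, and in scFv-112A over wild type 41 rose and 3 fell, with a median of 0.23. These were 31.0%, 52.1% and 62.0% of the 71, against 32.0%, 61.9% and 48.3% of all tested genes. The direct neighbours of the 30 genes, of which 42 of 45 were tested, had medians of -0.09, 0.01 and 0.07, and 6 rose and 13 fell in scFv-58F over scFv-112A, 14 rose and 13 fell in scFv-58F over wild type, and 14 rose and 2 fell in scFv-112A over wild type. Of the 42 neighbours 45.2%, 64.3% and 38.1% passed. YGL262W, beside PAU11, had the largest rises over wild type in both lists, 1.48 in scFv-58F and 2.55 in scFv-112A. It was above background on 2 scFv-58F, 3 scFv-112A and 0 wild type arrays, so it was tested only through the intrabody strains, where it was higher. Its calls, counted above, and the size of its changes are therefore uncertain.

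The regulators of these genes were looked at as a list of 10, all tested. In scFv-58F over scFv-112A 4 rose and none fell, with a list median of 0.18. In scFv-58F over wild type 3 rose and 2 fell (median 0.03), and in scFv-112A over wild type 2 rose and 3 fell (median -0.03). The shares that passed, 40.0%, 50.0% and 50.0%, lay near those of all tested genes, 32.0%, 61.9% and 48.3%. UPC2, the activator of the TIR and DAN genes in sterol-poor cells, was the regulator with the largest change. Its level averaged -3.51 ± 0.07 in scFv-58F, -3.98 ± 0.24 in scFv-112A and -4.65 ± 0.05 in wild type (SD, n = 4 each). It was 2.21-fold higher in scFv-58F than in wild type (1.15 ± 0.10, adjusted p = 1.68e-06), 1.60-fold higher in scFv-112A than in wild type (0.68 ± 0.10, adjusted p = 0.000194) and 1.38-fold higher in scFv-58F than in scFv-112A (0.47 ± 0.10, adjusted p = 0.00376). UPC2 was dim, and with normexp background correction its change in scFv-58F over scFv-112A was 0.22.

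ECM22, the paralogue of UPC2 and likewise a sterol-responsive activator, rose in scFv-58F relative to scFv-112A (0.34 ± 0.06, adjusted p = 0.00167) and to wild type (0.34 ± 0.06, adjusted p = 0.000384), with no change that passed in scFv-112A over wild type. The repressor gene ROX1 passed in no comparison, at -0.28 in scFv-58F over scFv-112A (adjusted p = 0.0547), -0.22 in scFv-58F over wild type (adjusted p = 0.0751) and 0.06 in scFv-112A over wild type (adjusted p = 0.673). It fell in 6 of 21 other settings in scFv-58F over scFv-112A and in 2 in scFv-58F over wild type. MOT3, the other repressor gene, fell in scFv-58F over wild type (-0.29 ± 0.11, adjusted p = 0.0354, lost without any 1 of 5 arrays) and passed in neither of the other comparisons. HAP1, the haem sensor, passed in none, but rose in 1 of 21 other settings in scFv-58F over scFv-112A and in 2 in scFv-58F over wild type. MGA2 and SPT23 encode paralogous activators of the fatty acid desaturase gene OLE1: MGA2 rose by 0.39 and SPT23 fell by 0.28 in scFv-58F over wild type, and in scFv-112A over wild type MGA2 rose by 0.18, a call lost in 6 of 21 other settings, and SPT23 fell by 0.29. SUT1, a regulator of sterol uptake, fell by 0.49 in scFv-112A over wild type (adjusted p = 0.0164), a call lost without scFv-112A replicate 1.

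Other wall mannoprotein genes moved in both directions. Of 17 tested, 4 rose and 4 fell in scFv-58F over scFv-112A (median -0.08), 7 rose and 6 fell in scFv-58F over wild type (median 0.13), and 7 rose and 4 fell in scFv-112A over wild type (median 0.07). These were 47.1%, 76.5% and 64.7% of the list, against 32.0%, 61.9% and 48.3% of all tested genes. TIP1, a cold- and heat-shock mannoprotein of the same family as TIR1, rose in scFv-58F (0.60 ± 0.14, adjusted p = 0.00345) and in scFv-112A (0.56 ± 0.14, adjusted p = 0.00784) relative to wild type, with 0.04 between the intrabody strains. CWP1, a wall mannoprotein of cells grown in air, fell in scFv-58F (-0.24 ± 0.08, adjusted p = 0.0182, lost without scFv-58F replicate 2 or 4) and in scFv-112A (-0.34 ± 0.08, adjusted p = 0.00453) relative to wild type. CWP2, its close relative, fell in scFv-58F relative to scFv-112A (-0.49 ± 0.16, adjusted p = 0.0316) and to wild type (-0.42 ± 0.16, adjusted p = 0.0352), but these calls were lost in 9 and 8 of 21 other settings.

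SPI1, a wall protein induced by weak acids, was 1.99-fold lower in scFv-58F than in wild type (-0.99 ± 0.06, adjusted p = 3.78e-07), 1.54-fold lower in scFv-112A than in wild type and 1.29-fold lower in scFv-58F than in scFv-112A. FIT3, a mannoprotein that holds iron-bearing siderophores in the wall, had the largest change of the list, 2.56-fold higher in scFv-58F (1.35 ± 0.15, adjusted p = 1.43e-05) and 3.62-fold higher in scFv-112A (1.86 ± 0.15, adjusted p = 5.29e-06) relative to wild type. FIT3 fell in scFv-58F over scFv-112A (-0.50 ± 0.15, adjusted p = 0.025), a call lost in 4 of 21 other settings. Its relative FIT2 rose in scFv-112A over wild type (0.78 ± 0.14, adjusted p = 0.000882) and fell in scFv-58F over scFv-112A (-0.56 ± 0.14, adjusted p = 0.00999). PST1, a wall protein gene that responds to wall damage, rose by 0.64 in scFv-58F over wild type. In scFv-112A over wild type it rose by 0.22, a call lost in 4 of 21 other settings. PST1 also rose in scFv-58F over scFv-112A (0.42 ± 0.08, adjusted p = 0.00237), a call that held in all 21.

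Sterol uptake and other low-oxygen genes were the last list. Of 11 tested, 3 rose and 1 fell in scFv-58F over scFv-112A (median 0.00), 2 rose and 4 fell in scFv-58F over wild type (median 0.00), and 1 rose and 3 fell in scFv-112A over wild type (median -0.12). These were 36.4%, 54.5% and 36.4% of the list, near or below the 32.0%, 61.9% and 48.3% of all tested genes. PDR11, a sterol importer, fell in scFv-58F (-0.60 ± 0.04, adjusted p = 3.13e-07) and in scFv-112A (-0.47 ± 0.04, adjusted p = 5.52e-06) relative to wild type. ANB1, the hypoxic form of a translation factor, was well above background on 4 scFv-58F, 2 scFv-112A and 1 wild type arrays. It reached the 4 arrays needed for testing only through scFv-58F, where it was highest. Its calls, counted above, and the size of its changes are therefore uncertain. The ANB1 change in scFv-58F over wild type was 1.94 as fitted and 1.07 with normexp background correction. In scFv-58F over scFv-112A it was 1.22 as fitted and 0.47 with normexp. AAC3, the hypoxic form of the mitochondrial ADP/ATP carrier, fell in scFv-58F over wild type (-0.49 ± 0.17, adjusted p = 0.0274), a call lost in 5 of the settings that tested it, and was above background on 2 scFv-58F, 2 scFv-112A and 3 wild type arrays. CYC7, the hypoxic cytochrome c, fell by 0.32 in both intrabody strains relative to wild type, and each call was lost in 6 of 21 other settings. COX5B, the hypoxic form of a cytochrome oxidase subunit, rose by 0.29 in scFv-58F over scFv-112A (adjusted p = 0.0464, lost in 9 of 21 other settings), and so did ARE1, a sterol esterifying enzyme, by 0.27 (adjusted p = 0.0207, lost in 3 of 21 other settings).

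**Figure D5:**
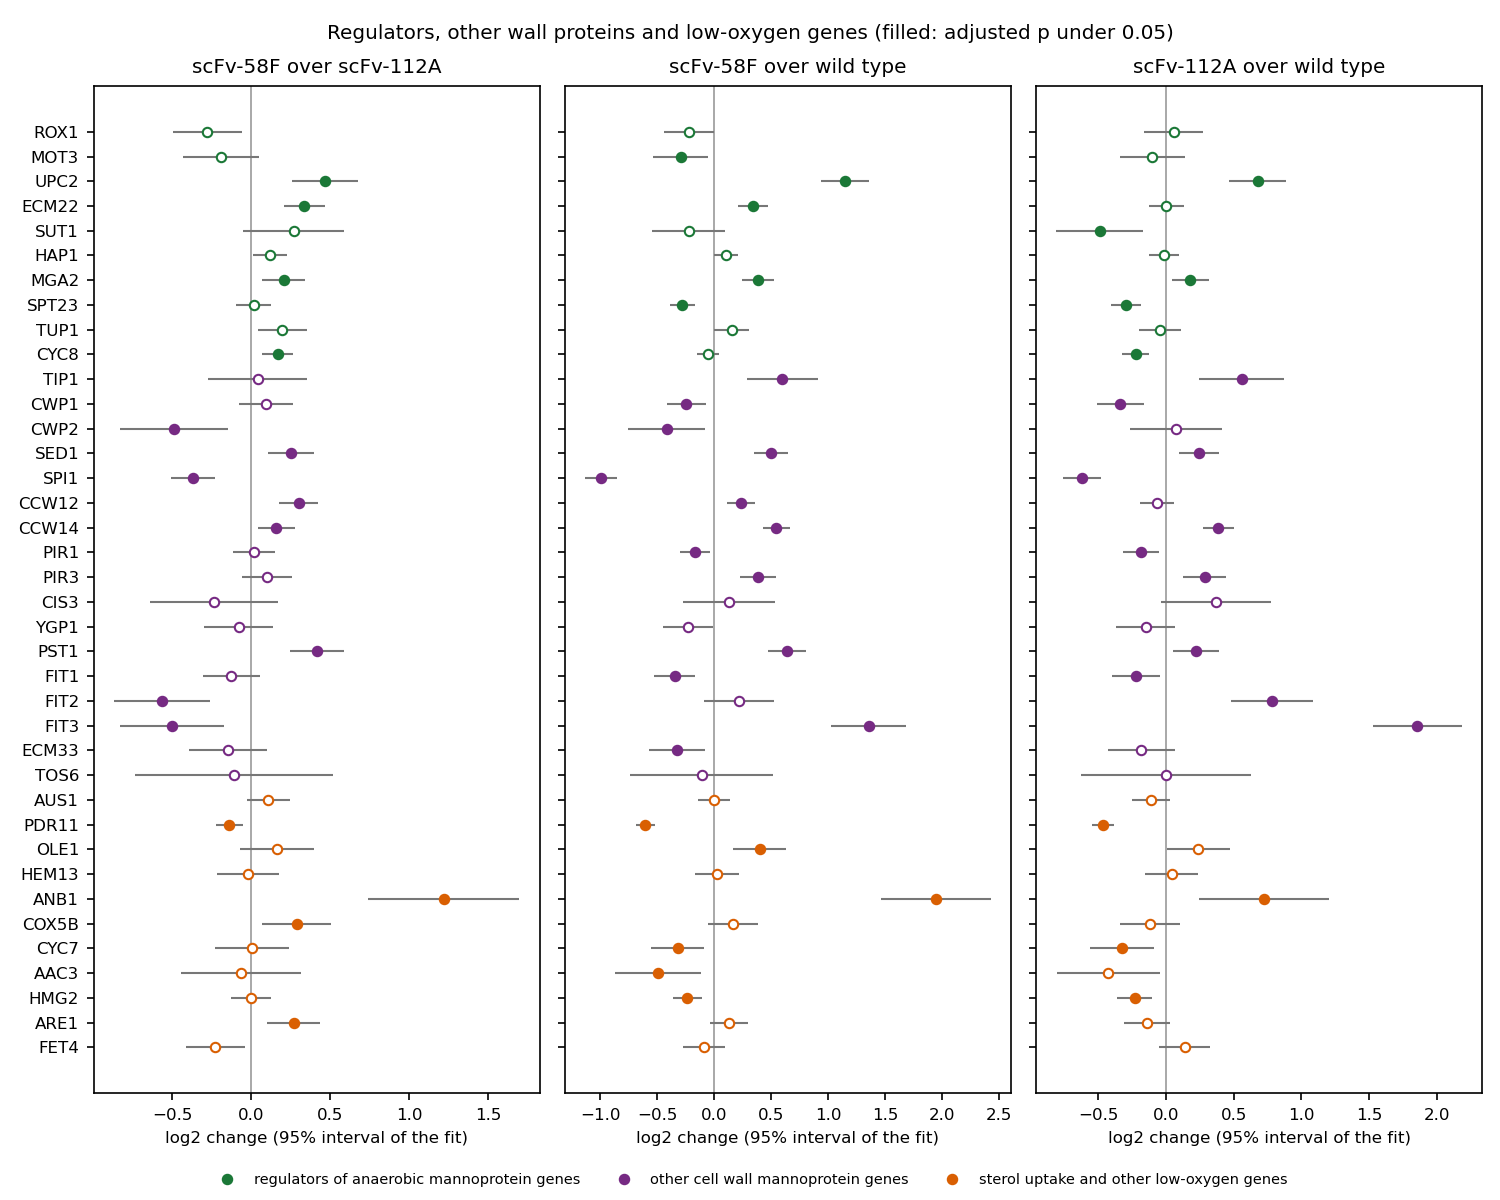
Log2 change of 38 genes of the 3 lists (regulators, other wall mannoproteins, sterol uptake and low oxygen) in the 3 comparisons, with the 95% interval of the fit; filled points passed at an adjusted p of 0.05, and the horizontal scales differ between panels. UPC2 lies above 0 in all 3 panels, as do some other genes, among them MGA2, SED1, PST1, OLE1 and ANB1. Each of the 3 lists has genes on both sides of 0.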

How the data were processed

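Per the file headers, signals were extracted by the authors with Agilent Feature Extraction 10.7.3.1 from 1-colour arrays of a design on build sacCer2. The intensity used is the deposited processed signal, background-corrected by that software. A deposited value table of 5297 probes on a log2 scale, at the same 75th percentile of 12.8 on every array, was used as an alternative. It followed the scanner values plus an offset per array, and how its probes were chosen is not given in the sources used here.

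Control spots and outlier spots were left out, log2 intensity was set relative to each array's 75th percentile over all gene spots, and each probe's 2 spots were averaged. Where a gene had several probes, the one with the highest mean was used. Genes well above background on at least 4 of 12 arrays were tested (5827 of 6224). Symbols came from the array's systematic names through the RefSeq R64 gene table, which matched 5642 genes. Positions are ranks along its chromosomes. Groups were compared in 1 limma fit to all 12 arrays (version 3.58.1, R 4.3.3), with eBayes moderation and Benjamini-Hochberg adjustment, a pipeline tested on simulated data. SEs are those of the moderated fit.

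All PAU, TIR and DAN genes were named, each TIR and DAN gene by array, and likewise members among the 6 with the largest change in a comparison. Of the 3 lists, ROX1, MOT3, UPC2, HAP1, TIP1, CWP1 and up to 3 called genes with the largest change were named. The list of genes near chromosome ends was added after the data were seen. HSP150 had no probe of that name. Members and lists were chosen with earlier results of these data known.

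Replicate numbers are shared by the groups. Deviations of same-numbered arrays correlated by -0.17 to 0.19 (above 0.1 in 5 of 12 pairs). Those of other arrays between groups correlated by -0.30 to 0.25, so the numbers were not taken as pairs. The lowest signal well above background did follow the number: in each group it was smallest on replicate 2 and largest on replicate 3. Alternatives were normexp on the median and background signals (offset 50; the mean signal planned is not used here), quantile and cyclic loess scaling, other filters, every probe tested, the deposited table, a replicate block and each array left out. A 75th percentile without outlier spots was added after the data were seen.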

Additional observations from a re-analysis of the deposited data

Results flagged for a closer look

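Among 153 groups of 4 arrays looked at (the 30 PAU, TIR and DAN genes and 21 genes of the lists, each in 3 groups), 8 held an array whose gap to the nearest other array, divided by the range, was above Dixon's 95% critical value for 4 values. Chance gives about 1 in 20 such groups.

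DAN4 was at -2.93 on scFv-112A replicate 3, with the other 3 arrays at -2.85 to -2.83. PAU1 was at 0.0775 on scFv-112A replicate 3, with the others at 0.17 to 0.18. PAU11 was at -1.06 on the same array, with the others at -0.88 to -0.85. PAU11 was also at -1.16 on scFv-58F replicate 2, with the others at -1.09 to -1.08. PAU16 was at 0.38 on scFv-58F replicate 1, with the others at 0.25 to 0.26. PAU12 was at -0.78 on wild type replicate 1, with the others at -0.67 to -0.66. COX5B was at 2.53 on wild type replicate 1, with the others at 2.98 to 3.02. CWP2 was at 3.26 on scFv-112A replicate 4, with the others at 3.74 to 3.78. The scFv-112A replicate 3 array appears 3 times and has the lowest share of spots above background, 87.0%. Replicate 3 also had the lowest share within scFv-58F and within wild type, 89.7% in each.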

How the results depend on the processing

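Over 21 other settings, the calls that held in every one were 6 of 11 in scFv-58F over scFv-112A (PAU3, PAU12, PAU17, PAU21, PAU22 and PAU23), 7 of 10 in scFv-58F over wild type (TIR1, TIR2, TIR3, DAN4, PAU2, PAU8 and PAU11) and 14 of 20 in scFv-112A over wild type (TIR1, TIR2, TIR3, TIR4, DAN4, PAU2, PAU3, PAU4, PAU7, PAU8, PAU11, PAU15, PAU17 and PAU21). In scFv-58F over scFv-112A the count that rose was 0 and became 1, TIR4, with normexp background and with the 75th percentile taken without outlier spots. In scFv-58F over wild type the count that fell was 1 and became 2 either with quantile scaling or when dim probes were kept unfiltered, and 5 with cyclic loess scaling. The cause was not tested. Leaving out each array in turn gave, in scFv-58F over scFv-112A, 0 to 0 genes higher and 6 to 13 lower (6 without scFv-58F replicate 2, scFv-112A replicate 1 or scFv-112A replicate 4). For scFv-58F over wild type it gave 7 to 9 higher and 1 to 3 lower (3 without scFv-58F replicate 1), and in scFv-112A over wild type 12 to 19 higher and 2 to 2 lower. The PAU median then ran from -0.14 to -0.10, 0.01 to 0.07 and 0.13 to 0.17. With a replicate block 9 genes fell in scFv-58F over scFv-112A. The other counts stayed at 0, 9, 1, 18 and 2, but in scFv-112A over wild type PAU23 was lost and PAU24 gained. Precision is limited by 4 arrays a group, and ANB1, AAC3 and YGL262W, among others, were above background on only some arrays.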
